A study of Mus musculus with 16 samples.

Results

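Rag1, Rag2, Dntt, Ptcra, Sox4 and Cd24a are genes that developing thymocytes use and that mature T cells mostly shut down. They were represented by the 10 probe sets that the platform annotation maps to 1 of these 6 symbols, of 12488 probe sets on the array and of 8251 genes named by a probe set with 1 symbol. The values came from 16 single-colour Affymetrix arrays, each hybridised with amplified RNA of 1 sorted mouse lymphocyte sample. CD8aaT cells (TCRb+CD8a+CD8b-, 3 arrays) and CD8abT cells (TCRb+CD8a+CD8b+, 3 arrays) were sorted from RTOC after selection with the agonist Smcy, at a dose the labels write as 10 mM for CD8aaT and 100 nM for CD8abT. The labels do not expand RTOC, which is a common abbreviation of reaggregate thymic organ culture, and they give no strain or genotype for these cultures. NKT cells (CD3+CD4+NK1.1+, 3 arrays) and CD4T cells (CD3+CD4+NK1.1-, 3 arrays) came from spleens of wild-type C57BL/6 mice. B1 cells (IgM(hi)IgD(int)CD11b+, 2 arrays) were taken from the peritoneum and B2 cells (IgM(int)IgD(hi)CD11b-, 2 arrays) from the spleen of wild-type C57BL/6 mice. About 50000 cells were sorted per RTOC sample and about 100000 per spleen or peritoneal sample. Dose and lineage are the same factor within RTOC, and culture, coreceptor lineage and sort size are the same factor between RTOC and spleen, so they cannot be told apart. The unit of the higher dose may be a slip in the labels.

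The products of these genes act in sequence in the thymus. Rag1 and Rag2 together form the recombinase that cuts antigen receptor genes, and Dntt encodes terminal deoxynucleotidyl transferase, which adds untemplated nucleotides at the joints. Ptcra encodes the pre-T-cell receptor alpha chain, which pairs with a freshly rearranged beta chain before the double-positive stage. Sox4 is an HMG-box transcription factor of early lymphocyte development. Cd24a encodes the heat-stable antigen, a glycolipid-anchored surface protein that is high on immature thymocytes, lost as T cells mature and abundant on B-lineage cells.

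The promoters of Dntt and Sox4 are shown because only probe sets of these 2 genes passed the test in any comparison. Both are 300 bases long, from 250 before to 50 after the RefSeq start of the gene in build GRCm38.p6, written 5′ to 3′ along the gene's own strand. The Dntt window lies at chr19:41029025-41029324 on the plus strand and the Sox4 window at chr13:28953650-28953949 on the minus strand. Capitals mark E-boxes, the letters CANNTG that bind basic helix-loop-helix proteins such as the E proteins of thymocytes.
Dntt: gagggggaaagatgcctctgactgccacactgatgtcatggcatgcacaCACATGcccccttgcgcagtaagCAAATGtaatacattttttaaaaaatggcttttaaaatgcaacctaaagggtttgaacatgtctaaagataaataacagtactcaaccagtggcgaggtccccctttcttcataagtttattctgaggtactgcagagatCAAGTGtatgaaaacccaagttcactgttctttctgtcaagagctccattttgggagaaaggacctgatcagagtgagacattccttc
Sox4: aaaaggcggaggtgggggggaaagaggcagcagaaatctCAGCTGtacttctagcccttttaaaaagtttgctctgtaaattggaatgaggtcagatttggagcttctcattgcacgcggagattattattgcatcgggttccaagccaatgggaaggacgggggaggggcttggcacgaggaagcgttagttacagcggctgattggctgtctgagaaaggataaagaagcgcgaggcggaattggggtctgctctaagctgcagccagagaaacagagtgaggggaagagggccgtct
The Dntt window held 3 E-boxes and the Sox4 window 1. A promoter entry was available for 5 of the 6 genes, without Cd24a, and the windows of Rag1, Rag2 and Ptcra held 4, 2 and 3 E-boxes. An E-box was present in 72.3% of all 32851 promoter windows of this length, so its presence in all 5 does not set these genes apart. The Runx letters TGTGGT, searched on both strands, occurred in the Rag1 window alone of the 5, at 2 places, and in 16.8% of all windows. The letters TCAAAG of TCF and LEF factors and TATAAA of the TATA box, searched the same way, were found in none of the 5 windows, against 16% and 13.6% of all windows.

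Deposited intensities were not on 1 scale between the pairs of groups. The median of an array was 30.4 to 31.8 on the 6 RTOC arrays, 49.6 to 54.1 on the 6 splenic T cell arrays and 69.3 to 76.2 on the 4 B cell arrays. Groups of the same pair were therefore compared on log2 of the deposited intensities, and RTOC was compared with spleen on log2 values after quantile normalization of all 16 arrays. Each level is also given as a percentile, the share of the 12422 non-control probe sets on the same array that were dimmer. It rests on the order within the array, as the quantile-normalized values do. Some markers followed the labels of the sorted cells and others did not. The 4 measured pan-T markers (Cd3e, Cd3g, Cd3d and Zap70) lay at percentiles 87.5 to 99.4 on all T cell arrays and at 3.01 to 74.1 on the B cell arrays. There the Cd3 genes, which should be silent, reached 58.7. Zap70 alone set the top, at 64.5 to 74.1, and its silence in B cells was not tested. A percentile up to 58.7 therefore does not show that a gene was expressed, and those up to 74.1 were read with the same caution. Cd8b1, part of the gate, differed by -5.51 ± 0.34 on the log2 scale in CD8aaT minus CD8abT (adjusted p = 3.6e-06, limma). A probe set common to Klrb1b and Klrb1c, the second of which encodes NK1.1, was 3.67 ± 0.15 higher in NKT than in CD4T (adjusted p = 5e-09, limma). In B1 minus B2, Ighd differed by -1.25 ± 0.18 (adjusted p = 0.0017, limma). Itgam, which encodes CD11b, differed there by 0.0072 ± 0.17 and Ighm by 0.54 ± 0.35, and neither was called. The quantile-normalized mean of Cd4 was 7.89 in CD4T and 7.20 in NKT, against 7.13 in B1 and 7.30 in B2. The series calls its replicates biological and does not say whether they came from separate animals or cultures, so each p-value speaks only for the spread among the arrays at hand.

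Of the thymocyte-stage genes, Sox4 alone was called higher in the T cells from RTOC than in splenic T cells, about 2.02-fold and by 1 of its 2 probe sets. Rag1, Rag2, Dntt and Ptcra stayed at low or uninformative levels in all 6 groups, and no probe set of them passed the test between RTOC and spleen on the quantile-normalized scale. Cd24a was among the brightest genes of B cells and far dimmer in every T cell group, with its highest T cell values on 2 of the 3 CD8abT arrays. Of the 10 probe sets, 1 was called higher and 0 lower in RTOC T cells, where 36.2% of all probe sets were called in either direction and 18.8% were called higher, so the count is no more than the background gives. The median difference of the 10 probe sets was -0.06 on the quantile-normalized log2 scale, beside a median of 0.03 over all probe sets. In bulk RNA of a sorted sample, fewer cells that express a gene and less RNA of it per cell cannot be told apart.

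**Figure D1:**
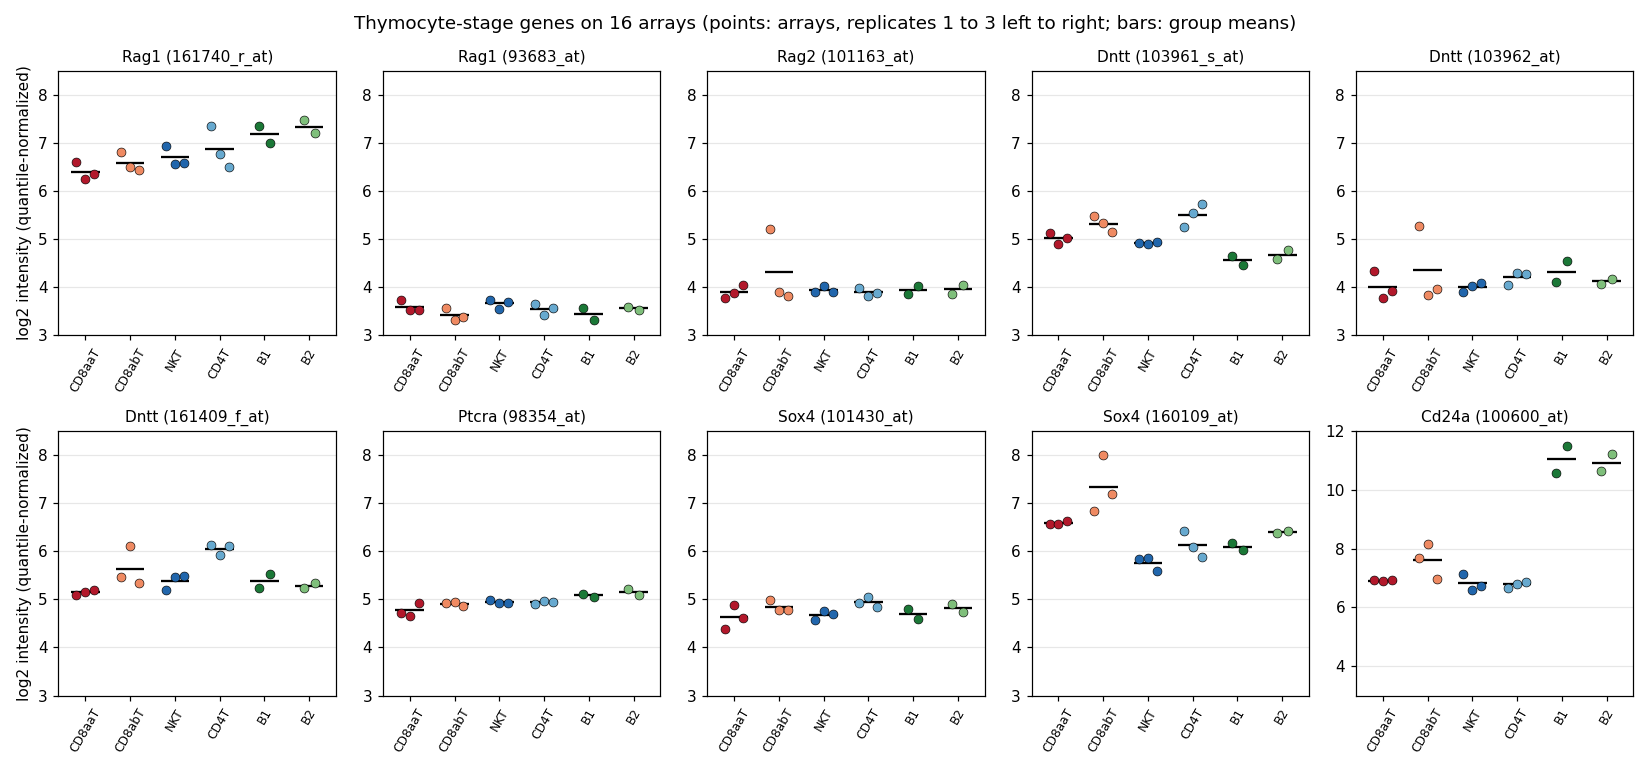
Log2 intensity after quantile normalization (vertical axis) of the 10 probe sets of thymocyte-stage genes in CD8aaT, CD8abT, NKT, CD4T, B1 and B2 (horizontal axis). Points are arrays and bars are group means. The Sox4 probe set 160109_at has all 6 RTOC arrays above the 6 splenic T cell arrays, and Cd24a is on its own axis because its B cell values reach 11.51.

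Rag1 was measured by 2 probe sets that disagreed in level. The probe set 93683_at was among the dimmest of the array, at percentiles 2.45 to 11.7 over all 16 arrays. The probe set 161740_r_at, whose suffix marks relaxed probe selection rules, lay at 63.9 to 83.2 on the same arrays. Since levels of different probe sets cannot be set against each other, neither was taken as the level of Rag1. For 161740_r_at the order of the group means on the quantile-normalized scale was B2, B1, CD4T, NKT, CD8abT and CD8aaT, and each pair of neighbours in that order overlapped. The difference between RTOC and splenic T cells was -0.29 ± 0.15 for 161740_r_at (adjusted p = 0.14, limma) and -0.09 ± 0.08 for 93683_at (adjusted p = 0.39, limma). That of 161740_r_at was called with median centring, at -0.36, and with the replicate number as a fixed block, at -0.29 (adjusted p = 0.015 in both). This block assumes that replicate numbers pair RTOC with spleen, which the arrays did not show.

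Rag2, the partner of Rag1 in the recombinase, was dim on 15 of 16 arrays. Its probe set lay at percentile 43.6 on CD8abT replicate 1 and between 12.4 and 19.0 on the other 15 arrays. On the quantile-normalized log2 scale the CD8aaT arrays gave 3.77, 3.88 and 4.05 and the CD8abT arrays 5.22, 3.89 and 3.82, against 3.91, 4.03 and 3.90 on the NKT arrays and 3.99, 3.81 and 3.87 on the CD4T arrays. The groups overlapped, and 1 CD8abT array stood above all the others. Rag2 differed by 0.42 ± 0.27 in CD8abT minus CD4T, with a 95% interval of -0.17 to 1.01 (adjusted p = 0.30, limma), and -0.04 ± 0.27 in CD8aaT minus NKT (adjusted p = 0.94, limma).

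Dntt was read by 3 probe sets, and the array that stood out for Rag2 stood out for 1 of them as well. The probe set 103962_at had deposited log2 values of 4.71 on CD8abT replicate 1 and 3.31 and 3.45 on replicates 2 and 3. The other 2 Dntt probe sets did not show this excess, with 103961_s_at at 4.89, 4.75 and 4.60 and 161409_f_at at 4.88, 5.52 and 4.78 on the same 3 arrays. On CD8abT replicate 1, 269 of all probe sets (2.17%) exceeded both other replicates by over 1 on the log2 scale, among them 2 of the 10 thymocyte-stage probe sets. On the other T cell arrays this share ran from 0 to 1.02% and held none of the 10. Without replicate 1 of every group, 103962_at differed by -0.39 in CD8abT minus CD4T (adjusted p = 0.02, limma), where all arrays together gave 0.15 ± 0.29 (adjusted p = 0.75).

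In the splenic pair, 2 of the 3 Dntt probe sets were lower in NKT than in CD4T. For 103961_s_at the deposited log2 values were 5.08, 4.92 and 4.97 on the NKT arrays and 5.49, 5.68 and 5.83 on the CD4T arrays. For 161409_f_at they were 5.37, 5.55 and 5.59 on the NKT arrays and 6.33, 6.07 and 6.24 on the CD4T arrays. All NKT arrays lay below all CD4T arrays for both. The differences were -0.67 ± 0.14 for 103961_s_at (1.60-fold lower, adjusted p = 0.018) and -0.71 ± 0.17 for 161409_f_at (1.64-fold lower, adjusted p = 0.049) by limma, and -0.24 ± 0.28 for 103962_at (adjusted p = 1). Of the 10 probe sets, 2 were called lower and 0 higher in NKT, where 1.63% of all probe sets were called and 0.539% were called lower, and both belong to 1 gene. In 4 of the 10, the arrays did not overlap and NKT was lower, namely the 3 of Dntt and the dim Sox4 probe set 101430_at, beside 5.02% of all probe sets. The suffixes _s_at and _f_at mark probes shared with other transcripts or a family, and the percentiles of the 3 Dntt probe sets were 12.3 to 61.3 over all arrays.

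The call for 103961_s_at was lost when any of CD4T replicates 2 and 3 and NKT replicates 2 and 3 was left out (adjusted p = 0.09 to 0.11, limma). That for 161409_f_at was lost in 17 of 23 alternative settings.

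Between RTOC and spleen Dntt gave no call on the quantile-normalized scale. For 161409_f_at the CD8aaT arrays gave 5.08, 5.16 and 5.20 and the CD8abT arrays 5.47, 6.10 and 5.33, against 5.20, 5.46 and 5.49 on the NKT arrays and 6.12, 5.92 and 6.10 on the CD4T arrays. CD4T was high on all 3 arrays and CD8abT on 1, so the RTOC and splenic arrays overlapped. The difference of -0.32 ± 0.12 between RTOC and splenic T cells had an adjusted p of 0.053 (limma), close to the threshold. It was called with median centring (adjusted p = 0.044), with the replicate number as a fixed block (adjusted p = 0.043), without NKT replicate 1 (adjusted p = 0.043) and without CD8abT replicate 2 (adjusted p = 0.0026). The fixed block again assumes a pairing of RTOC with spleen that the arrays did not show. The other 2 Dntt probe sets differed by -0.04 ± 0.09 for 103961_s_at (adjusted p = 0.76) and 0.07 ± 0.21 for 103962_at (adjusted p = 0.81).

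Ptcra varied little. Its probe set lay at percentiles 32.5 to 43.4 over all 16 arrays. The quantile-normalized log2 means were 4.77 ± 0.14 in CD8aaT and 4.91 ± 0.05 in CD8abT, against 4.95 ± 0.03 in NKT and 4.94 ± 0.03 in CD4T (SD, n = 3 each). The RTOC and splenic arrays overlapped. RTOC T cells differed from splenic T cells by -0.11 ± 0.07, with a 95% interval of -0.25 to 0.04 (adjusted p = 0.23, limma).

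Sox4 was read by 2 probe sets, of which the brighter one carried the only call between RTOC and spleen. On the quantile-normalized log2 scale 160109_at gave 6.56, 6.56 and 6.64 on the CD8aaT arrays and 6.84, 8.0 and 7.18 on the CD8abT arrays, against 5.84, 5.85 and 5.60 on the NKT arrays and 6.42, 6.09 and 5.88 on the CD4T arrays. All 6 RTOC arrays lay above all 6 splenic T cell arrays. The percentiles, which have the same order by construction, were 69.4 to 88.9 on RTOC arrays and 51.1 to 66.9 on splenic T cell arrays. Only CD8abT replicates 2 and 3, at 88.9 and 79.3, exceeded the 74.1 that a pan-T marker reached on B cell arrays. On the other T cell arrays the percentile was not taken to show that Sox4 was expressed. The mean of the RTOC groups exceeded that of the splenic groups by 1.02 ± 0.16 (2.02-fold, adjusted p = 0.00036, limma). This fit took the arrays as independent, although same-numbered arrays within a pair of groups deviated together. A fit with these arrays as a random block, at a correlation of 0.52, kept the call. It was kept in 24 of 25 alternative settings and lost on deposited values. A lack of overlap in this direction was seen in 1 of the 10 probe sets and in 9.19% of all probe sets.

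Each RTOC group was also set against 1 splenic group for Sox4, comparisons that the difference of the means already averages. CD8abT exceeded CD4T by 1.21 ± 0.23 (2.31-fold, adjusted p = 0.0028, limma), where 20.9% of all probe sets were called and 10.9% were called higher. CD8aaT exceeded NKT by 0.82 ± 0.23 (1.77-fold, adjusted p = 0.024, limma), where 18.3% were called and 9.19% were called higher. In both, Sox4 was the single called member of the 10 probe sets. With the arrays of CD8abT and CD4T fitted alone the difference was 1.21 with an adjusted p of 0.074, and leaving out any 1 of CD8aaT replicates 1, 2 and 3 and NKT replicates 2 and 3 brought that of CD8aaT over NKT to an adjusted p of 0.054 to 0.099. On deposited values neither was called, with 0.45 for CD8abT minus CD4T (adjusted p = 0.13) and 0.08 for CD8aaT minus NKT (adjusted p = 0.79).

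The size of the Sox4 difference depends on how the arrays are scaled. On deposited values the RTOC excess was 0.26 (adjusted p = 0.19, limma), where the median of all probe sets was -0.59 and 7 of the 10 member probe sets were called lower in RTOC T cells. Centring each array on its median gave 0.99 (adjusted p = 0.00066), where the median of all probe sets was 0.13. The second Sox4 probe set, 101430_at, was dim at percentiles 26.7 to 40.1 on all arrays and differed by -0.07 ± 0.09 (adjusted p = 0.59, limma).

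**Figure D2:**
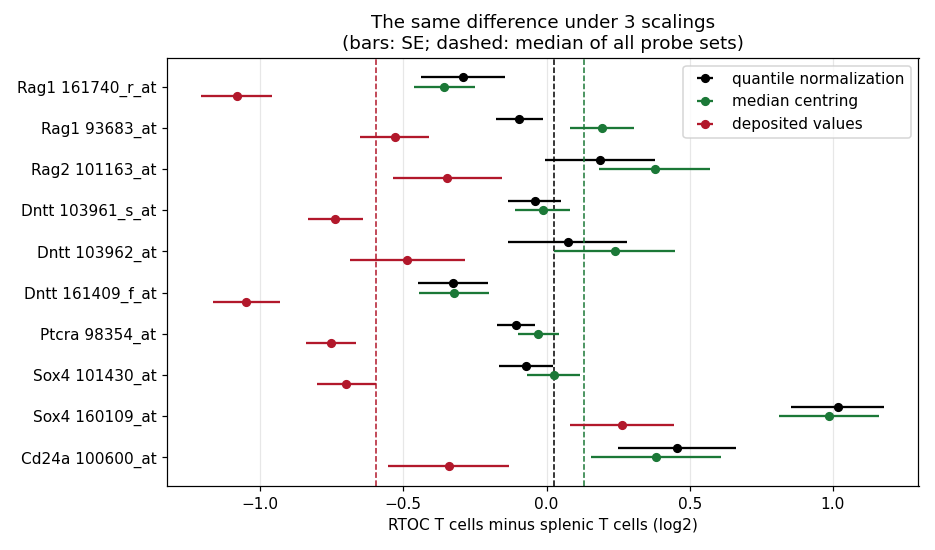
Difference of RTOC T cells minus splenic T cells on the log2 scale (horizontal axis) for the 10 probe sets under quantile normalization, median centring and the deposited values. Points are fitted differences, bars are SE, and dashed lines are the medians of all probe sets, 0.03, 0.13 and -0.59. Sox4 160109_at lies to the right of the dashed line of each scaling.

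Within RTOC, every CD8aaT array had a lower Sox4 value than every CD8abT array. The deposited log2 values were 5.90, 6.00 and 6.08 on the CD8aaT arrays and 6.14, 7.47 and 6.60 on the CD8abT arrays. The arrays did not overlap, though CD8abT spread far more, and the difference of -0.75 ± 0.26 did not pass the test (adjusted p = 0.58, limma). Its 95% interval ran from -1.30 to -0.20. With the replicate number as a block, since same-numbered arrays of these groups deviated together, the adjusted p was 0.062.

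The order of the Sox4 group means on the quantile-normalized scale was CD8abT, CD8aaT, B2, CD4T, B1 and NKT. CD8abT did not overlap CD8aaT, CD8aaT did not overlap B2, and B1 did not overlap NKT, while B2 and CD4T overlapped, as did CD4T and B1. B cells had 6.17 and 6.02 in B1 and 6.39 and 6.42 in B2, between the RTOC and the NKT values. B1 minus B2 was -0.32 ± 0.31 on deposited values (adjusted p = 1, limma).

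The 3 probe sets nearest to Sox4 160109_at by the root mean square difference of centred profiles over 16 arrays were those of Traf4 (0.203), Cox6a2 (0.229) and H2ax (0.239). Traf4 encodes a signalling adaptor, Cox6a2 a subunit of cytochrome c oxidase and H2ax a histone variant that marks DNA breaks. Like Sox4, all 3 had their highest group mean in CD8abT and their second highest in CD8aaT. These were 7.37 and 7.0 for Traf4, 6.97 and 6.35 for Cox6a2, and 7.83 and 7.45 for H2ax. The shared order largely follows from the choice by profile and is no separate result.

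Several other measures moved with RTOC beside Sox4. Genes of cell division were called higher in RTOC T cells in 16 of 18, and their summed quantile-normalized intensity was 3488 to 5544 in CD8aaT and 4603 to 5351 in CD8abT, against 1816 to 1907 in NKT and 1719 to 1887 in CD4T. Markers of thymic epithelium and stroma, cells that a sorted T cell sample from a thymic culture could still hold, were called higher in 4 of 11 and lower in 0, beside 18.8% of all probe sets called higher. With median centring 6 were called higher and 0 lower, and on deposited values 1 higher and 8 lower. Their summed intensity was 537 to 837 over the RTOC arrays and 456 to 727 over the splenic T cell arrays. Col3a1, a fibrillar collagen, was 1.34 ± 0.22 higher (adjusted p = 0.00052, limma), and Krt8, an epithelial keratin, 0.59 ± 0.10 higher (adjusted p = 0.00058), the second of which turned to -0.19 on deposited values. The part of dividing cells or of stroma in the Sox4 difference was not tested. The 3′ actin control was set over its 5′ counterpart, a ratio that RNA integrity and the amplification of the RNA can both shift. It was 5.80, 5.76 and 5.15 on the CD8aaT arrays and 6.57, 11.6 and 7.92 on the CD8abT arrays. On the NKT arrays it was 5.34, 3.56 and 3.72 and on the CD4T arrays 7.02, 3.59 and 3.71. The same ratio of the Gapdh control was 20.9, 17.6 and 7.37 on the CD8aaT arrays and 24.0, 30.4 and 9.47 on the CD8abT arrays, against 6.15, 5.11 and 5.69 on the NKT arrays and 8.48, 5.85 and 5.83 on the CD4T arrays. The RTOC and splenic arrays overlapped for Gapdh only through CD4T replicate 1, at 8.48. For actin they overlapped through NKT replicate 1, at 5.34, and CD4T replicate 1, at 7.02. In each ratio the remaining splenic T cell arrays lay below every RTOC array. The CD8abT array with the highest Sox4 and Cd24a values, replicate 2, also had the highest of both ratios. The part of RNA integrity or amplification in the Sox4 difference was not tested. Without that array the RTOC excess of Sox4 was 0.85 (adjusted p = 0.00012, limma). This is no test of that part, since the other RTOC arrays still had ratios of 5.15 to 7.92 for actin and 7.37 to 24.0 for Gapdh.

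Cd24a separated B cells from T cells. Its quantile-normalized log2 values were 10.56 and 11.51 in B1 and 10.63 and 11.22 in B2, at percentiles 98.8 to 99.5, whereas no T cell array exceeded 8.16. B1 and B2 overlapped, and B1 minus B2 was 0.17 ± 0.37 on deposited values (adjusted p = 1, limma). The 3 probe sets nearest to Cd24a were those of Blnk (0.558), Ighm (0.567) and Fcgr2b (0.588), an adaptor of the B cell receptor, the IgM heavy chain and an inhibitory Fc receptor. They had their 2 highest group means in B1 and B2, as did Cd24a, which largely follows from the choice by profile.

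Among T cells, Cd24a was highest on 2 CD8abT arrays. The quantile-normalized log2 values were 6.92, 6.88 and 6.94 on the CD8aaT arrays and 7.68, 8.16 and 6.95 on the CD8abT arrays, against 7.13, 6.59 and 6.72 on the NKT arrays and 6.67, 6.81 and 6.88 on the CD4T arrays. All 3 CD8abT arrays lay above all CD4T arrays, the third by a small margin, while CD8aaT and NKT overlapped. CD8abT minus CD4T was 0.81 ± 0.29 (1.76-fold), which missed the threshold (adjusted p = 0.065, limma) and had a 95% interval of 0.18 to 1.44. Without CD8abT replicate 3 the difference was 1.14 with an adjusted p of 0.011, and on deposited values it was 0.01 (adjusted p = 0.97). The mean of the RTOC groups minus that of the splenic groups was 0.45 ± 0.21 (adjusted p = 0.10, limma), and 0.62 with an adjusted p of 0.017 without the same array. No overlap with CD8abT higher than CD4T was seen in 2 of the 10 probe sets, those of Sox4 and Cd24a, beside 16.7% of all probe sets.

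CD8aaT differed from NKT in Cd24a by 0.10 ± 0.29, with a 95% interval of -0.53 to 0.73 (adjusted p = 0.86, limma). CD8aaT minus CD8abT was -0.66 ± 0.30 on deposited values (adjusted p = 0.82, limma), with a 95% interval of -1.30 to -0.02 and with overlap between CD8aaT and CD8abT replicate 3. Since Cd24a is bright in B cells, pan-B markers are given beside it. The summed intensity of the 5 measured (quantile-normalized) was 372 to 1122 in CD8aaT and 369 to 467 in CD8abT, against 596 to 1426 in NKT and 535 to 1289 in CD4T. On B cell arrays these sums were 8803 to 10460. The part of B cell RNA in the T cell values of Cd24a was not tested.

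**Figure D3:**
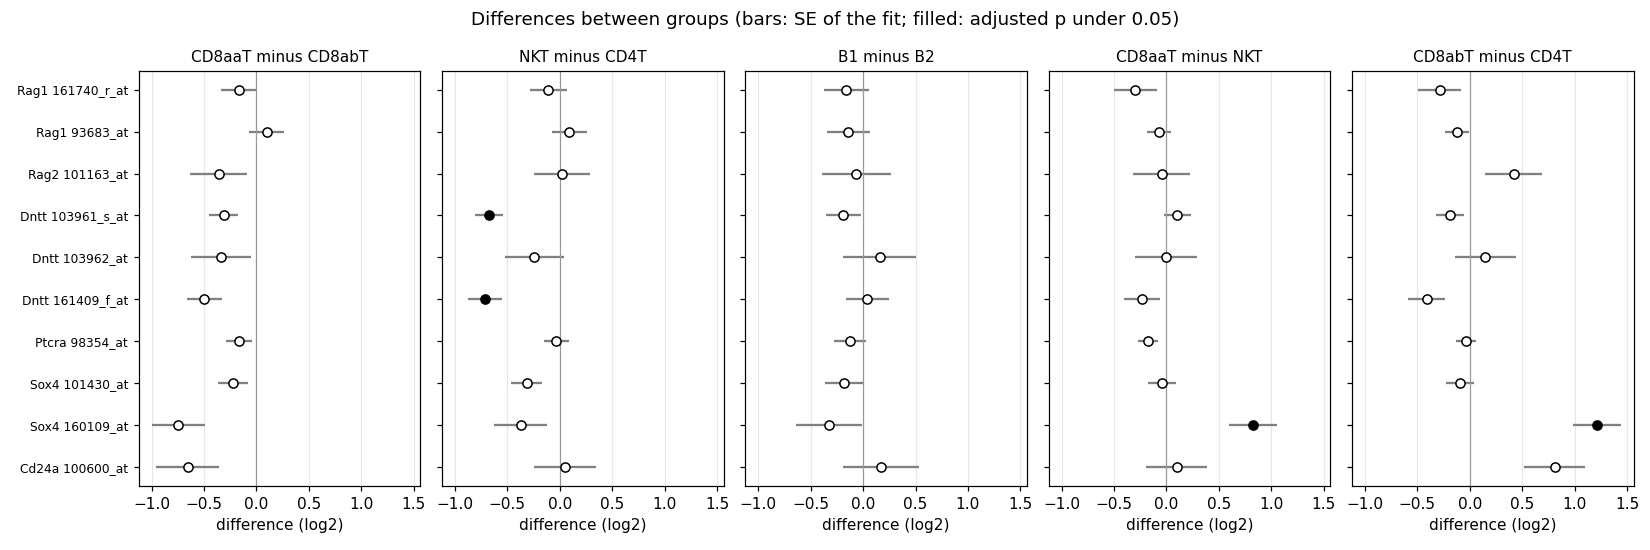
Fitted differences on the log2 scale (horizontal axis) with SE bars for the 10 probe sets in 5 comparisons, the first 3 on deposited values and the last 2 after quantile normalization. Filled points passed an adjusted p of 0.05, which are 2 Dntt probe sets in NKT minus CD4T and Sox4 160109_at in CD8aaT minus NKT and CD8abT minus CD4T.

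CD8aaT minus CD8abT gave no call for any of the 10 probe sets, beside 0.185% of all probe sets called. At an unadjusted p under 0.05 it held 749 of all 12422. In 9 of the 10 the CD8aaT mean was the lower one, with a median difference of -0.33 on deposited values, beside a median of -0.05 and a share of 60.8% below 0 over all probe sets. The 10 probe sets include several of 1 gene and are not independent of each other. In 3 the arrays did not overlap and CD8aaT was lower, namely Dntt 103961_s_at, Dntt 161409_f_at and Sox4 160109_at, beside 5.51% of all probe sets. The Dntt differences were -0.31 ± 0.14 (adjusted p = 0.80) for 103961_s_at and -0.50 ± 0.17 (adjusted p = 0.58) for 161409_f_at by limma. The test of whether this pair differed otherwise than NKT and CD4T called 0 of the 10, beside 0.692% of all probe sets, and B1 minus B2 called 0 of the 10, beside 1.14%. At an unadjusted p under 0.05 these comparisons held 627 and 594 of all probe sets.

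Other genes of the thymic steps between RTOC and spleen were described from lists of known genes, each read by its brightest probe set. Their counts are read against 18.8% of all probe sets called higher and 17.3% called lower, and they move with the scaling, the median of all probe sets being 0.13 with median centring and -0.59 on deposited values. Partners of Rag1, Rag2 and Dntt in V(D)J joining and end repair were called lower in RTOC T cells in 3 of 7 and higher in 0 (lower in 4 with median centring and 5 on deposited values), with a median of -0.42 on the quantile-normalized log2 scale. They were Atm, a kinase that responds to DNA breaks, at -1.04 ± 0.28 (2.06-fold lower, adjusted p = 0.012, limma), Trp53bp1, a factor recruited to breaks, at -0.59 ± 0.09, and Prkdc, the catalytic subunit of DNA-dependent protein kinase, at -0.45 ± 0.15.

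Genes of the stage at which Ptcra acts, before and during pre-T-cell receptor signalling, were called higher in 3 of 13 and lower in 6. With median centring 3 were called higher and 4 lower, and on deposited values 2 higher and 10 lower. Kit, the stem cell factor receptor of early progenitors, was 1.99 ± 0.15 higher (3.97-fold, adjusted p = 7.5e-07, limma). Mycn, a Myc-family transcription factor, was 0.79 ± 0.11 higher. Notch3 was 0.31 ± 0.09 higher, which turned to -0.47 on deposited values. Lyl1 (-0.95 ± 0.24) and Lmo2 (-0.65 ± 0.07), transcriptional regulators of early progenitors, and Dtx1 (-0.78 ± 0.21), a Notch target, were lower. Lyl1 and Lmo2 were brightest in B cells, at 8.41 and 7.37 in B1 and 9.13 and 9.47 in B2. The part of B cell RNA in these differences was not tested. Lyl1 differed by -1.17 ± 0.34 in CD8aaT minus NKT (adjusted p = 0.031, limma) and by -0.74 ± 0.34 in CD8abT minus CD4T (adjusted p = 0.15). By pair, Dtx1 differed by -1.60 ± 0.30 in CD8aaT minus NKT (adjusted p = 0.0026, limma) and by 0.04 ± 0.30 in CD8abT minus CD4T (adjusted p = 0.94). Kit was also the one gene of these lists, outside the sort gates, that was called between the RTOC groups, 1.87 ± 0.21 higher in CD8aaT than in CD8abT (3.66-fold, adjusted p = 0.0012, limma).

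Regulators of the double-positive stage were called lower in RTOC T cells in 6 of 11 and higher in 0, with 5 lower under median centring and 10 on deposited values. Ets1, a transcription factor of T cells, fell by 2.12 ± 0.23 on the log2 scale (4.33-fold, adjusted p = 1.6e-05, limma). Cd1d1, the molecule that selects NKT cells, differed by -1.78 ± 0.13, and Runx1, the DNA-binding subunit of a core-binding factor, by -1.68 ± 0.17. Bcl6 and Satb1, regulators of transcription, differed by -1.06 ± 0.20 and -0.89 ± 0.26. Bcl6 was brightest in B2, at 8.37, and the part of B cell RNA in its difference was not tested. By pair, Satb1 differed by -1.20 ± 0.37 in CD8aaT minus NKT (adjusted p = 0.04, limma) and by -0.58 ± 0.37 in CD8abT minus CD4T (adjusted p = 0.29). Myb, of the same list, was 1.62 ± 0.51 higher in CD8aaT than in NKT (adjusted p = 0.042, limma). In CD8abT minus CD4T it differed by -0.0062 ± 0.51. Genes of positive selection were called higher in 3 of 12 and lower in 4. With median centring 3 were called higher and 5 lower, and on deposited values 2 higher and 8 lower. Id3, an inhibitor of E proteins, was 1.24 ± 0.15 higher, Ccr9, a chemokine receptor of thymocytes and gut T cells, 1.18 ± 0.17 higher and Egr2, a factor induced by receptor signalling, 0.82 ± 0.19 higher. Gata3, a transcription factor of helper T cells, differed by -1.40 ± 0.19. Cd5 (-0.92 ± 0.25, adjusted p = 0.011) and Nfatc1 (-0.89 ± 0.27, adjusted p = 0.019) were also called lower by limma. On deposited values Id3 was at 0.50, Ccr9 at 0.45 and Egr2 at 0.05, the last not called (adjusted p = 0.83, limma). Ccr9 differed by 0.11 ± 0.23 in CD8aaT minus NKT (adjusted p = 0.80, limma) and by 2.24 ± 0.23 in CD8abT minus CD4T (adjusted p = 3.6e-05). Egr2 differed by 1.32 ± 0.26 in CD8aaT minus NKT (adjusted p = 0.0038, limma) and by 0.32 ± 0.26 in CD8abT minus CD4T (adjusted p = 0.42).

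Genes of maturation and egress were called lower in RTOC T cells in 6 of 9 and higher in 2. With median centring 4 were called lower and 2 higher, and on deposited values 6 lower and 1 higher. Il7r, the interleukin 7 receptor alpha chain, fell by 2.50 ± 0.25 on the log2 scale (5.65-fold, adjusted p = 1e-05, limma). Cd55, an inhibitor of complement, differed by -1.07 ± 0.17 and Ccr7, a lymph node homing receptor, by -0.64 ± 0.16. Cd55 was brightest in B cells, at 7.07 in B1 and 7.65 in B2, and the part of B cell RNA in its difference was not tested. By pair, Ccr7 differed by -1.17 ± 0.22 in CD8abT minus CD4T (adjusted p = 0.003, limma) and by -0.10 ± 0.22 in CD8aaT minus NKT (adjusted p = 0.81). Bcl2, a survival factor, was 1.22 ± 0.21 higher, and Klf2 was 0.62 ± 0.14 higher, which turned to -0.13 on deposited values. Klf2 differed by 1.23 ± 0.20 in CD8aaT minus NKT (adjusted p = 0.00094, limma) and by 0.0029 ± 0.20 in CD8abT minus CD4T (adjusted p = 0.99). Of the relatives of Sox4, 2 of 11 were called higher and 1 lower, with a median of 0.06. With median centring 5 were called higher and 1 lower, and on deposited values 0 higher and 8 lower. Sox17 was 0.74 ± 0.09 higher and Sox13 0.41 ± 0.15 higher, with 0.03 for Sox17 (adjusted p = 0.77, limma) and -0.33 for Sox13 on deposited values, and Sox15 differed by -0.32 ± 0.09. The 16 called genes of cell division were led by Mki67, a marker of cycling cells, at 2.98 ± 0.25 (7.86-fold), Ccnb2 at 2.75 ± 0.18 and Top2a at 2.73 ± 0.17. On deposited values 10 of its 18 genes were called higher and 1 lower.

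**Figure D4:**
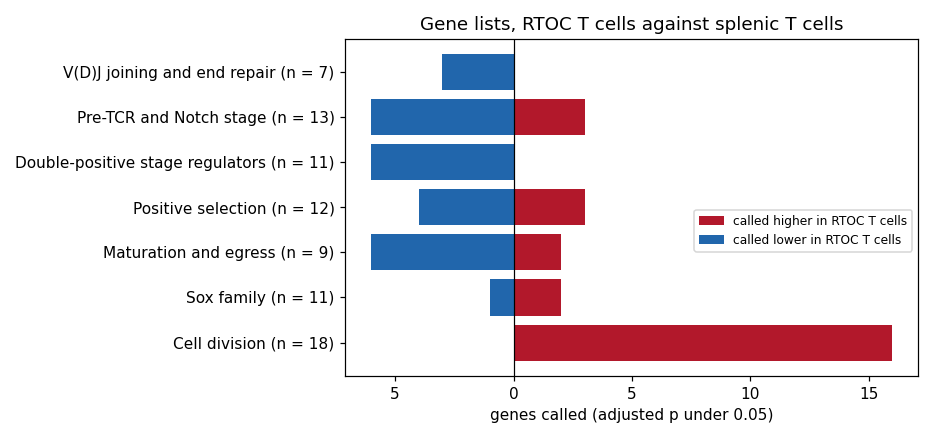
Number of genes called (horizontal axis, adjusted p under 0.05) higher to the right and lower to the left in RTOC T cells against splenic T cells, for 7 gene lists (vertical axis, n genes measured). Cell division has 16 of 18 called higher, and the double-positive stage regulators have 6 of 11 called lower.

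Markers of the remaining cell types were also compared between RTOC and splenic T cells. Pan-T markers were called higher in 1 of 4, erythroid genes higher in 1 and lower in 1 of 4, and macrophage and dendritic cell genes higher in 1 and lower in 3 of 7. Pan-B markers were called lower in 2 of 5, Ms4a1 at -1.58 ± 0.35 and Cd22 at -0.98 ± 0.09 on the quantile-normalized log2 scale. On deposited values none of these genes was called higher, and 3 of 4 pan-T, 4 of 4 erythroid, 7 of 7 macrophage and dendritic cell and 4 of 5 pan-B genes were called lower. Markers of B cell progenitors, cells that also use Rag1, Rag2 and Dntt, were called higher in 1 of 2, with summed intensities of 122 to 166 on RTOC arrays and 114 to 163 on splenic T cell arrays. Their part in the values of Rag1, Rag2 and Dntt was not tested.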

How the data were processed

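The values deposited by the authors are linear intensities, 1 per probe set and array, made with RMA per the submitters' processing notes. The sources used here do not give its version or say which arrays shared a normalization. RMA compresses differences of dim probe sets, and the number of arrays limits the precision. Gene names came from the platform annotation. The 66 control probe sets were left out. A linear model with a mean for each of the 6 groups was fitted to log2 values of the 16 arrays (limma 3.58.1 under R 4.3.3, moderated by eBayes). Two-sided p-values were called under 0.05 after Benjamini-Hochberg adjustment for 12422 probe sets, and values after ± are SE of the fit unless marked SD. Named genes were every probe set of the 6 members, up to 6 called genes per list, the 3 nearest profiles of members whose group means span over 1 log2 unit, and gate genes. The called genes named from a list are not always those of the largest difference. Members, lists and tests were chosen with earlier results of these data known. The fit was tested on simulated data with independent noise on each array. That test does not cover arrays whose deviations are correlated, as those of a pair were. For the replicate block, same-numbered CD8aaT and CD8abT arrays had correlated deviations from their group means (0.64, 0.60 and 0.66), as had NKT and CD4T arrays (0.76, 0.65 and 0.67), above a minimum of 0.1. No label gives this pairing. In the RTOC pair, arrays of unlike number correlated at -0.49 to -0.056. In the splenic pair, NKT replicate 3 and CD4T replicate 2 also correlated at 0.67, and NKT replicate 2 and CD4T replicate 3 at 0.57. There the values set replicate 1 apart from replicates 2 and 3 and do not pair the latter by number. Numbers did not pair RTOC with spleen. Same-numbered arrays correlated at 0.058, 0.23 and -0.17 for CD8aaT and NKT, and at -0.099, 0.26 and -0.31 for CD8abT and CD4T. The fixed block used between RTOC and spleen shares its terms over all groups, so it assumes a pairing that these arrays did not show. The main fit has no block, so its p-values between RTOC and spleen take the arrays of a pair as independent.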

Additional observations from a re-analysis of the deposited data

How the results depend on the processing

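Of the 10 member probe sets, the number called between RTOC and splenic T cells was 1, against 7 on deposited values (all lower), 3 with median centring, 3 with the replicate number as a fixed block and 1 to 2 with arrays left out. Here the fixed block assumes a pairing of RTOC with spleen that the arrays did not show. For CD8abT minus CD4T it was 1, against 6 on deposited values, 0 with the arrays of these groups alone and 1 to 3 with arrays left out. For CD8aaT minus NKT it was 1, against 6 on deposited values and 0 to 1 with arrays left out. For NKT minus CD4T it was 2, against 1 with quantile normalization, 1 with median centring, 0 with the groups alone, 0 without dim probe sets (which leaves 3 of the 10) and 0 to 2 with arrays left out. It stayed at 0 in the other 3 comparisons under all settings run. Dntt 103962_at turned negative in CD8abT minus CD4T without replicate 1 of every group (-0.39) and in RTOC minus splenic T cells on deposited values (-0.49) and without replicate 1 (-0.30), and Dntt 103961_s_at did in CD8aaT minus NKT on deposited values (-0.56). The cause was not tested.

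The replicate block changed no call of a member within the T cell pairs. It moved the called total of all probe sets to 601 against 202 in NKT minus CD4T, to 398 against 23 in CD8aaT minus CD8abT, to 353 against 142 in B1 minus B2 and to 375 against 86 in the difference between the T cell pairs. Totals with arrays left out were 134 to 356, 10 to 190, 64 to 227 and 45 to 363 in these comparisons, the highest each time without replicate 1 of every group. With the groups alone they were 2 for CD8aaT minus CD8abT, 50 for B1 minus B2 and 53 for the difference, and without dim probe sets 133 for NKT minus CD4T, 71 for B1 minus B2 and 43 for the difference. For CD8abT minus CD4T the total was 2601 (1355 higher, 1246 lower), against 8178 on deposited values (185 higher, 7993 lower), 2293 higher and 1089 lower with median centring, 728 with the groups alone, 1261 without dim probe sets and 1387 to 5053 with arrays left out. For CD8aaT minus NKT it was 2276 (1141 higher, 1135 lower), against 8410 (234 higher, 8176 lower), 1952 higher and 1108 lower, 1234 without dim probe sets and 1398 to 3748. For RTOC minus splenic T cells it was 4492 (2338 higher, 2154 lower), against 9964 on deposited values (278 higher, 9686 lower), 3946 higher and 1915 lower with median centring, 2307 without dim probe sets and 3630 to 6304 with arrays left out.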
